A study of Mus musculus with 2 samples.

Results

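The chemokine genes Cxcl9 and Cxcl10 and the gene of their shared receptor, Cxcr3, were followed across the leukocytes of mouse intrahepatic cholangiocarcinoma (iCCA), a bile duct cancer of the liver. These are 3 of the 31253 genes in the deposited tables, taken by symbol. They were selected on measured values of the same 2 libraries, so what follows describes them and tests nothing. Tumours were raised in C57BL/6 mice, in both groups, by hydrodynamic injection of transposon vectors for Myr-AKT, a membrane-bound active AKT, and YAPS127A, a YAP form with the S127A change. From day 7 one group received NAV2729, an inhibitor of ARF GTPase activation, at 30 mg/kg every other day for 7 days, and the MOCK group went without it; the labels do not say whether a vehicle was given. CD45+ cells were sorted, pooled over tumours and read as 1 BD Rhapsody library per group (MOCK and NAV). The labels give 6 tumours per group in one place and 3 in another, so the size of the pool is uncertain. With 1 library per group no difference below has a replicate check, and every interval is an exact 95% interval that covers counting error only.

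CXCL9 and CXCL10 are small secreted proteins that draw in cells carrying CXCR3, a receptor coupled to inhibitory G proteins and found on activated T cells, NK cells and some dendritic cells. Interferon-gamma from T and NK cells induces both ligands, and Cxcl10 also answers type I interferon and NF-kB. In tumours the axis is known for bringing effector T cells into contact with macrophages and dendritic cells.

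The ligand genes lie side by side on chromosome 5 of GRCm38, both on the minus strand. Cxcl9 (ENSMUSG00000029417) spans 92321347 to 92328079 with 4 exons, and Cxcl10 (ENSMUSG00000034855) spans 92346638 to 92348889 with 3 exons. No annotated gene lies wholly within the 18558 bases between them. Genes that overlap only part of this gap, or span it, were not searched for. Cxcr3 (ENSMUSG00000050232) lies on the minus strand of chromosome X, 101731535 to 101734269, with 2 exons. The 250 bases before the start of each ligand gene are shown because the ligands were read in overlapping but not identical cells. Both come from RefSeq on GRCm38.p6, chr5:92328080-92328329 for Cxcl9 and chr5:92348890-92349139 for Cxcl10, on the minus strand. All 3 genes were matched in that table. Capitals mark matches on either strand to the motifs searched.
Cxcl9: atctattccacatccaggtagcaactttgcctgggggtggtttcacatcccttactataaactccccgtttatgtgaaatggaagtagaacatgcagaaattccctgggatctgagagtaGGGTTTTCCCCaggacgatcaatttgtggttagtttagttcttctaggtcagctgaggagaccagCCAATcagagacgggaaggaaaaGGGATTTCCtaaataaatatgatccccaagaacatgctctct
Cxcl10: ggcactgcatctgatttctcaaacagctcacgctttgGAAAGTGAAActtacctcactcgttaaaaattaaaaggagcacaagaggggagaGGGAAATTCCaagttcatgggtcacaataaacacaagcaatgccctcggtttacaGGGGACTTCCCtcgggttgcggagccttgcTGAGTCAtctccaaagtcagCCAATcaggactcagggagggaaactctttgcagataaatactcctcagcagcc
The interferon-stimulated response element, written as GAAA, any 2 bases and GAAA, is matched in the Cxcl10 window, 213 to 204 bases before the start, and not in the Cxcl9 window; 2.98% of all 32851 promoters of the table hold it. Searches of both strands found the NF-kB forms, which can overlap each other, as GGG and CC with 5 bases (45.8% of promoters) or 4 bases (38.7%) between, at 130 to 120 and 42 to 34 bases before the Cxcl9 start, and at 159 to 150 and 104 to 94 bases before the Cxcl10 start. CCAAT (33.8% of promoters) is matched in both windows, at 65 to 61 bases for Cxcl9 and 54 to 50 bases for Cxcl10. The AP-1 form TGANTCA (6.75%) is matched for Cxcl10 only, 74 to 68 bases before the start. The T-box form AGGTGTGA (1.12%) is not matched in either window, which says only that these letters are not there.

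The analysed libraries held 10192 MOCK and 9872 NAV cells, with medians of 3727.5 and 2008.5 UMIs (unique molecules) per cell and 5 barcodes shared between libraries. Ptprc, which encodes CD45, had a UMI in 83.5% of MOCK and 79.7% of NAV cells. Summed markers of the cells a CD45 sort leaves out were highest for endothelium, at 118.4 and 127.2 CPM (UMIs of a gene per 1000000 UMIs). Cell classes were rebuilt from marker genes, carry "-like", and left out the 3 genes when cells were clustered. Clusters without a class are called by their leading genes. The neutrophil-like class made up 19.9% of the MOCK and 33.1% of the NAV library, and the Kupffer-like class, macrophages that live in the liver sinusoids, 10.2% and 2.69%. The makeup of the macrophage-like class shifted too. Its cluster led by Fcrls and Gpr34 held 658 MOCK and 101 NAV cells, and its cluster led by Arg1 and Ackr3 held 156 and 408.

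Cxcl9 was the member with the largest difference between libraries. Over all cells it had 741 UMIs in MOCK and 2263 in NAV, or 17.6 (16.3 to 18.9) and 78.8 (75.6 to 82.1) CPM, a log2 NAV/MOCK ratio of 2.17 (2.04 to 2.29). Cxcl10 had 4935 and 4654 UMIs, or 117 and 162 CPM, a log2 ratio of 0.47 (0.41 to 0.53). Cxcr3 had 116 and 167 UMIs, or 2.75 and 5.81 CPM, a log2 ratio of 1.08 (0.73 to 1.44). The median log2 ratio over all genes was 0.07. A gene is called higher or lower below where its log2 ratio is at least 1 with an interval that leaves out 0, among genes with at least 20 UMIs over both libraries. By that rule Cxcl9 and Cxcr3 were called higher over all cells, as were 4.97% of 13851 genes, and the rule for choosing the members used this contrast, so nothing is read from the count.

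Few cells carried most of the Cxcl9. It was read in 162 MOCK cells (1.59%) and 252 NAV cells (2.55%), and with each cell thinned to 1000 UMIs in 0.738% and 1.76%. The 10 highest cells held 40.1% of its UMIs in MOCK and 29.3% in NAV, and 15 and 26 cells held the upper 50%. Cells with at least 10 Cxcl9 UMIs numbered 19 in MOCK and 62 in NAV. Cxcl10 was spread over more cells, 773 (7.58%) and 643 (6.51%) unthinned and 3.81% and 4.21% thinned. Of the cells with at least 10 Cxcl10 UMIs, 121 were in MOCK and 111 in NAV. Cxcr3 was read at the edge of detection, with 85% of its MOCK cells and 88.1% of its NAV cells holding a single UMI. In B-like cells, taken as the level of free RNA (median depths 1271 and 1362 UMIs), a Cxcl9 UMI was in 0.0985% and 0% of cells, a Cxcl10 UMI in 0.493% and 0.431%, and a Cxcr3 UMI in 0% and 0.0861%.

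**Figure D1:**
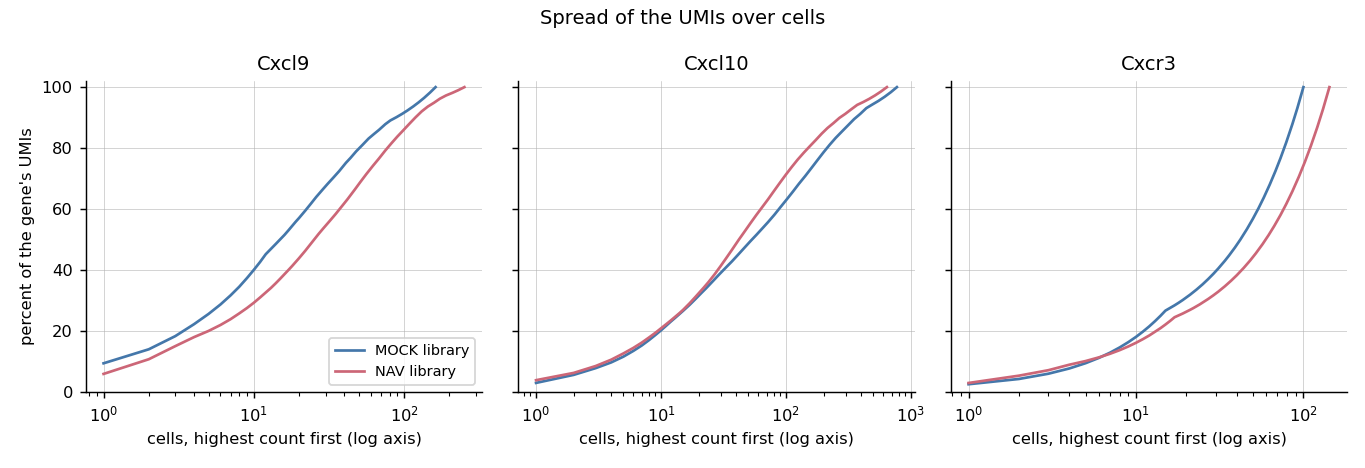
Percent of each gene's UMIs (vertical axis) held by the cells with the highest counts (horizontal axis, log scale), for the MOCK and NAV libraries. The Cxcl9 curves start high, with the 10 highest cells at 40.1% in MOCK and 29.3% in NAV, while Cxcr3 climbs late because most of its cells hold 1 UMI.

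Cxcl9 came from monocytes, macrophages and dendritic cells, the mononuclear phagocytes. Their clusters together held 729 of the MOCK and 2223 of the NAV UMIs, at 20.04 and 110 CPM, a log2 ratio of 2.46 (2.34 to 2.58). Both Cxcl9 and 2.9% of the 13063 genes measured there were called higher. A Cxcl9 UMI was in 2.35% of 6538 MOCK and 5.31% of 4405 NAV phagocytes, 1.012% and 3.24% thinned. The cells with a UMI also held more of them, since UMIs increased more than cells: 154 cells held the 729 UMIs and 234 cells the 2223.

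Across the 16 classes and clusters with at least 50 cells in each library, Cxcl9 had 20 UMIs or more in 9, was called higher in NAV in 7 and lower in 0. Dendritic cells of the cDC2-like class, which present antigen to CD4 T cells, went from 56 UMIs to 683, or from 37.8 (28.6 to 49.1) to 333 (308 to 359) CPM. Their log2 ratio was 3.14 (2.74 to 3.56), where 1.93% of genes were called higher. A UMI was found in 6.98% of cells in MOCK (22 of 315) and 12.1% in NAV (56 of 461), 2.57% and 7.46% thinned, and the highest cell had 8 UMIs in MOCK and 109 in NAV. In the cluster led by Spon1 and Vdr, phagocytes whose leading genes include the antigen-presentation genes H2-Ab1 and H2-Aa, Cxcl9 went from 94 to 614 UMIs, or 28.1 to 234 CPM, a log2 ratio of 3.06 (2.74 to 3.39) against 1.2% of genes called higher. There 2.93% of 614 MOCK and 9.45% of 508 NAV cells had a UMI.

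The same direction was seen in smaller or lower classes. In cDC1-like cells, the dendritic cells that cross-present antigen to CD8 T cells, Cxcl9 had 21 UMIs in 79 MOCK cells and 145 in 118 NAV cells, a log2 ratio of 2.16 (1.50 to 2.90), with 2.62% of genes called higher. Macrophage-like cells had 206 and 359 UMIs, or 17.6 (15.3 to 20.2) and 64.5 (58.0 to 71.5) CPM, a log2 ratio of 1.87 (1.62 to 2.12), with 1.58% of genes called higher. That ratio depended on which clusters entered the class, and was 3.08 at a finer clustering and 2.92 with doublets kept. Kupffer-like cells had 155 and 79 UMIs, or 20.1 and 48.1 CPM, a log2 ratio of 1.26 (0.85 to 1.66), with 0.917% of genes called higher. A single Kupffer-like cell held 70 of the MOCK UMIs and another 39 of the NAV UMIs, so that level rests on few cells. In the cluster led by Ace and Tppp3, whose leading genes include genes of nonclassical monocytes, Cxcl9 had 1 UMI in 311 MOCK cells and 67 in 515 NAV cells, where 1.2% of genes were called higher. The shallow cluster led by Dennd1a and Nedd4 (median depths 785 and 1009 UMIs) had 7 and 26 Cxcl9 UMIs, with 5.26% of genes called higher.

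Within the macrophage-like class the higher NAV level sat in 2 of the larger clusters. Cells led by Mmp2 and Tlr12 had 34.5 and 188 Cxcl9 CPM and a UMI in 4.57% and 12.1% of cells. Cells led by the heat-shock genes Hspa1a and Hspa1b had 27.4 and 112 CPM. In cells led by Fcrls and Gpr34 the level was 4.00 in MOCK and 0 in NAV, and cells led by Zfp791 and Ccl12 were lower in NAV (66.7 and 19.8 CPM, from 26 and 6 UMIs). Cells led by Arg1 and Ackr3 had 0 UMIs in MOCK and 3 in NAV. The classical monocyte-like class, the Ly6C-high precursors of macrophages, had 11.1 and 19.8 CPM.

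Some leukocytes had no Cxcl9 at this depth. NK-like cells had 0 of 112 MOCK and 0 of 227 NAV cells with a UMI, which allows shares of up to 2.68% and 1.32% by a limit of 3 counts, and up to 3.24% and 1.61% by the exact interval. CD8 T-like cells had 0 of 225 NAV cells with a UMI, which allows up to 1.33% by 3 counts and 1.63% by the exact interval, and their 5 MOCK UMIs were in 1 cell. The 17 UMIs in gd T/T17-like cells, the gamma-delta and IL-17-type T cells, were in 4 of 116 NAV cells. Mature DC-like cells, dendritic cells on their way to lymph nodes, went the other way, at 345 and 117 CPM, from 4 of 41 MOCK and 9 of 84 NAV cells.

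**Figure D2:**
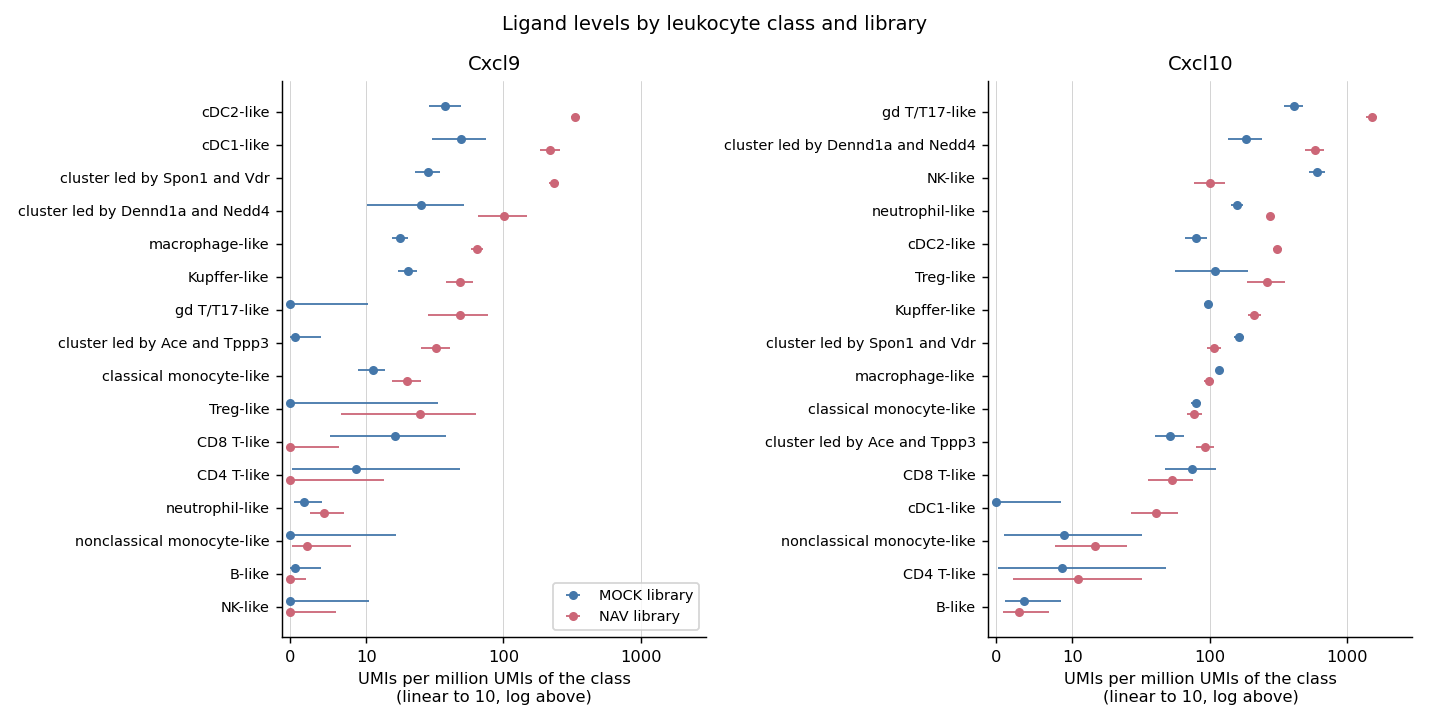
Cxcl9 and Cxcl10 CPM (horizontal axis, linear to 10 and log above) in the 16 classes with at least 50 cells per library, with exact Poisson intervals. Cxcl9 is highest in NAV cDC2-like cells at 333, and Cxcl10 in NAV gd T/T17-like cells at 1512.

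Cxcl10 differed by class in both directions. Of 13 classes and clusters with at least 20 UMIs it was called higher in NAV in 6 and lower in 1. The highest level of all was in gd T/T17-like cells, at 409 (346 to 481) CPM in MOCK and 1512 (1386 to 1646) in NAV, a log2 ratio of 1.89 (1.62 to 2.16) with 2.21% of genes called higher. A Cxcl10 UMI was found in 22.6% of cells in MOCK (31 of 137) and 37.9% in NAV (44 of 116), 16.5% and 25% thinned, against under 0.5% of B-like cells. The 13 macrophage markers summed to 106 CPM in the MOCK cells with a Cxcl10 UMI and 144 in the NAV cells, against 259 and 64.9 in the cells without one. In the macrophage-like class itself they summed to 17600 and 17090. Of the 13 markers, 5 had a UMI in the MOCK and 9 in the NAV cells with Cxcl10, and 9 and 4 in the cells without it. C1qa was at 0 in all of these cells, with or without Cxcl10. The part of these markers in the Cxcl10 level was not tested.

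NK-like cells were the class called lower. They had 214 Cxcl10 UMIs in 112 MOCK cells and 62 in 227 NAV cells, or 606 (528 to 693) and 101 (77.2 to 129) CPM, a log2 ratio of -2.59 (-3.02 to -2.18), where 4.2% of genes were called lower. The share of cells with a UMI differed less, 13.4% and 9.25% unthinned and 10.8% and 4.25% thinned. The highest cell had 50 UMIs in MOCK and 16 in NAV, and 15 MOCK cells held all 214 UMIs. The cluster led by Gzmc and Xcl1 had 856 CPM in MOCK and 96.0 in NAV, and the cluster led by Klra8 and Klra4 had 390 and 140. The cluster led by Serpinb9b and Prf1 had 590 and 54.7, but 1 cell held 39 of its 42 MOCK UMIs, and the share of cells with a UMI was 5.13% in MOCK and 5.77% in NAV. Summed macrophage markers in the cells with a Cxcl10 UMI were 416 in MOCK and 57.6 in NAV, against 237 and 112 in the NK-like cells without one. They moved with the Cxcl10 level, and their part in it was not tested.

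Among phagocytes, cDC2-like cells had more of this ligand in NAV too. Cxcl10 went from 118 to 638 UMIs, or 79.7 to 311 CPM, a log2 ratio of 1.96 (1.68 to 2.26). The share of cells with a UMI was 9.84% and 10.4%, or 4.18% and 6.36% thinned, and the highest cell had 23 UMIs in MOCK and 111 in NAV. In cDC1-like cells Cxcl10 had no UMI in 79 MOCK cells and 27 UMIs in 118 NAV cells, at least 2.54 higher on the log2 scale when MOCK is set at the floor of 3 counts over the class. That floor leaves out the counting error of the 27 UMIs, and the exact interval of the log2 ratio starts at 2.15. Kupffer-like cells had 97.6 and 211 CPM, a log2 ratio of 1.11, and 1 NAV cell with 182 UMIs held 52.5% of the NAV count. Treg-like cells, the regulatory T cells, had 12 and 42 UMIs, a log2 ratio of 1.25, with 3.52% of genes called higher. The cluster led by Dennd1a and Nedd4 had 51 and 150 UMIs, a log2 ratio of 1.66, with 5.26% of genes called higher. These UMIs were in 7 MOCK and 7 NAV cells, and 1 cell held 33 in MOCK and 1 cell 78 in NAV. The cluster led by Spon1 and Vdr, where Cxcl9 was so much higher, had a lower Cxcl10 level in NAV: 163 (150 to 178) and 108 (96.1 to 122) CPM, a log2 ratio of -0.59 (-0.81 to -0.38). Its share of cells with a Cxcl10 UMI was similar, 9.77% in MOCK and 10.8% in NAV, or 4.76% and 4.38% thinned. The highest cell had 93 UMIs in MOCK and 58 in NAV.

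Macrophage-like cells as a class gave a log2 ratio of -0.25 (-0.39 to -0.10) for Cxcl10, from 117 and 98.6 CPM, but its sign depended on which clusters entered the class (0.10 at a finer clustering, 0.55 with the libraries clustered separately and 0.32 over all mononuclear phagocytes). Its clusters differed. Cells led by Mmp2 and Tlr12 (149 and 223) and by Hspa1a and Hspa1b (113 and 196) were higher in NAV. In the cluster led by Hspa1a and Hspa1b, 1 NAV cell held 72 of 167 UMIs and 1 MOCK cell 47 of 169. Its share of cells with a Cxcl10 UMI was similar, 9.355% in MOCK and 10.55% in NAV, so that difference rests on few cells. Cells led by Arg1 and Ackr3 (83.2 and 19.7), which held more of the NAV cells, and cells led by Gpnmb and Syngr1 (43.3 and 2.77) were lower.

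Neutrophil-like cells held Cxcl10 mainly in 1 of their 2 clusters. The class had 158 Cxcl10 CPM in MOCK and 277 in NAV, a log2 ratio of 0.81 (0.65 to 0.98), beside a median of 0.35 over all genes of that class. Its cluster led by Il23a and Siglecf, which held 848 MOCK and 2642 NAV cells, had 380 (343 to 420) and 339 (319 to 360) CPM. The cluster led by Retnlg and Ngp, with 1185 and 622 cells, had 30.2 (22.6 to 39.5) and 59.0 (44.1 to 77.4). There 1 NAV cell held 35 of the 52 NAV UMIs, and 2.11% of MOCK and 1.77% of NAV cells had a UMI. The high cluster was thus no higher in NAV, and held a larger share of the NAV cells.

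**Figure D3:**
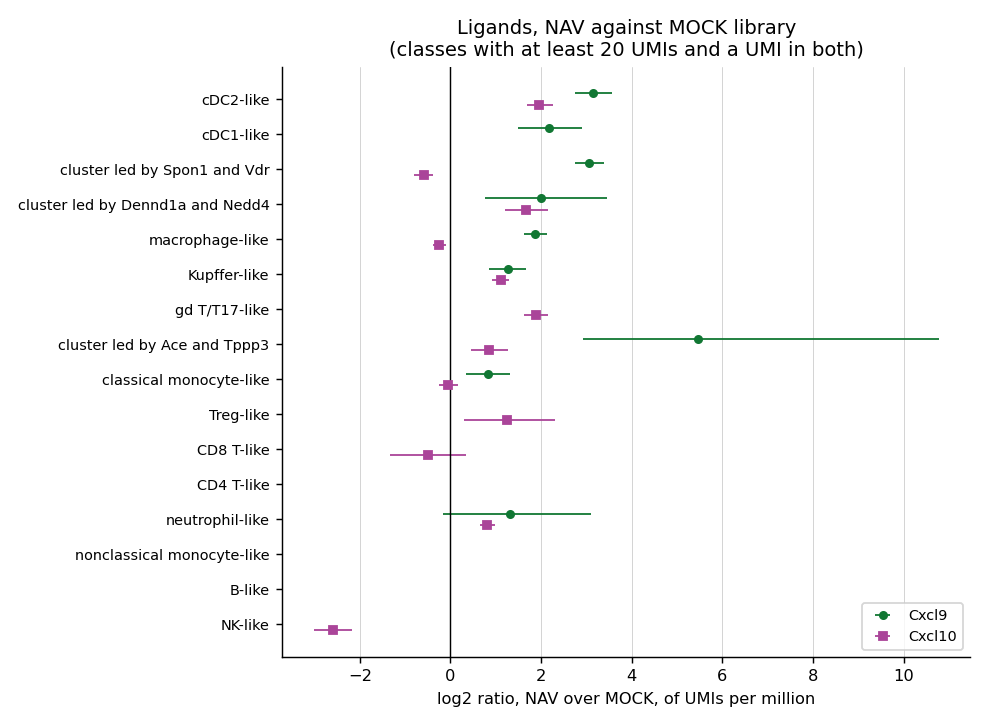
Log2 NAV/MOCK ratio of CPM (horizontal axis) for Cxcl9 (circles) and Cxcl10 (squares) in each class, with exact conditional intervals. Both lie above 0 in cDC2-like cells, at 3.14 and 1.96, they part in the cluster led by Spon1 and Vdr, at 3.06 and -0.59, and Cxcl10 is lowest in NK-like cells at -2.59.

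The classes that held the ligand UMIs differed between libraries. Of the Cxcl9 UMIs in MOCK, 27.8% were in macrophage-like and 20.9% in Kupffer-like cells. In NAV, 30.2% were in cDC2-like cells and 27.1% in the cluster led by Spon1 and Vdr. Of the Cxcl10 UMIs in MOCK, 27.7% were in macrophage-like and 15.3% in Kupffer-like cells. In NAV, 23.9% were in neutrophil-like, 13.7% in cDC2-like and 11.5% in gd T/T17-like cells. With the MOCK makeup of classes held and the NAV levels put in, the log2 ratio over all cells was 1.96 for Cxcl9, 0.49 for Cxcl10 and 0.48 for Cxcr3. With the MOCK levels held and the NAV makeup put in, it was 0.05, -0.01 and 0.80. This calculation fixes the shares of classes only; shares of clusters within a class, as in the neutrophil-like cells, still differ in it.

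**Figure D4:**
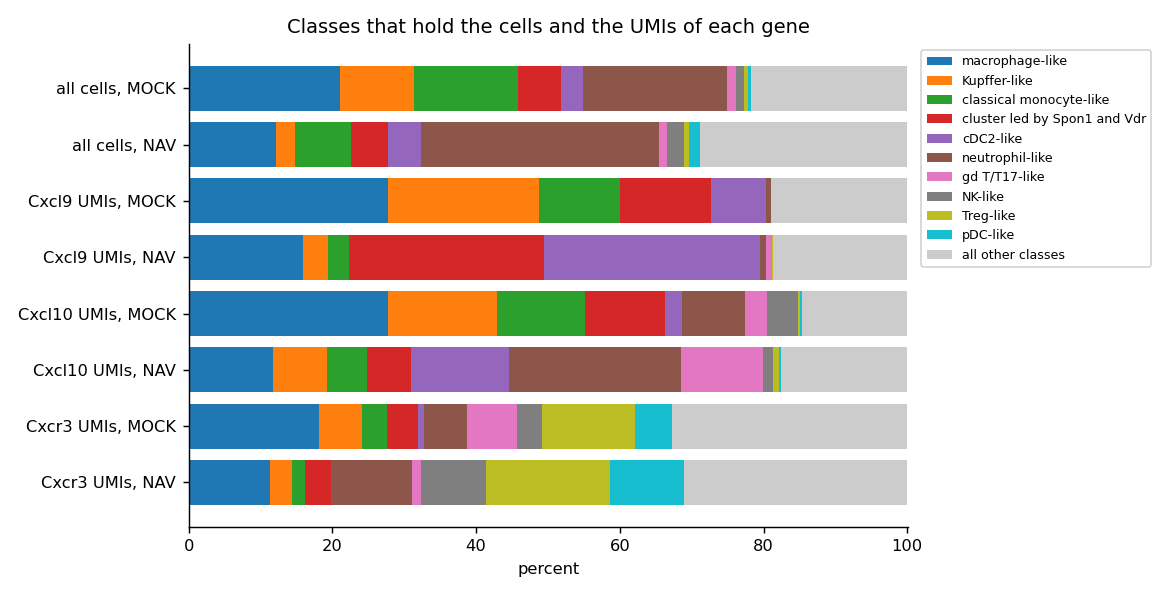
Percent of all cells and of each gene's UMIs (horizontal axis) held by each class, for each library. Cxcl9 UMIs move from macrophage-like and Kupffer-like cells in MOCK to cDC2-like cells (30.2%) and the cluster led by Spon1 and Vdr (27.1%) in NAV.

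Over all cells the ligands were read together more often than their separate shares give. Thinned to 1000 UMIs, 17 MOCK and 49 NAV cells had both, where the product of the separate shares gives 2.63 and 6.36 cells. That product is over all classes, and the ligands share classes. Within NAV cDC2-like cells alone, 14 thinned cells had both, against 2.16 from the product, and in MOCK 0 did, against 0.334. Unthinned, the 24 NAV cDC2-like cells with both ligands held 491 of the 683 Cxcl9 UMIs. Most thinned Cxcl9 cells had no Cxcl10 UMI, which at this depth does not show that they lacked it. Of 151 thinned NAV cells with Cxcl9, 32.5% (25.1 to 40.5) had a Cxcl10 UMI, and of 69 in MOCK 24.6%. Without thinning, 34.5% of 252 NAV and 30.2% of 162 MOCK cells with Cxcl9 had one. Those unthinned cells with both held 1246 of the 2263 NAV and 327 of the 741 MOCK Cxcl9 UMIs. Thinned cells with Cxcl10 held Cxcl9 less often, 4.78% of 356 in MOCK and 13.5% of 362 in NAV. The share of Cxcl9 among the UMIs of both ligands, compared between libraries within a class, went from 14.7% to 68.4% in the cluster led by Spon1 and Vdr, from 32.2% to 51.7% in cDC2-like cells and from 13.1% to 39.5% in macrophage-like cells. In Kupffer-like cells it was 17.1% and 18.5%. It was lower in NAV in mature DC-like cells, 82.4% (71.8 to 90.3) and 37.7% (28.5 to 47.7). That class had 41 MOCK cells, under the 50 used for calls, with Cxcl9 in 4 and Cxcl10 in 3. In cDC1-like cells it was 100% (83.9 to 100) and 84.3% (78.0 to 89.4), with intervals that overlap. The MOCK value there came from 21 Cxcl9 and 0 Cxcl10 UMIs.

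Interferon-induced genes were read more often in phagocytes that held a ligand. Of 11 measured interferon-gamma induced genes, 6 had a share of MOCK cells with an interval above that of cells without Cxcl9, and 9 of 10 did in NAV; over all genes 1.83% and 2.73% did. Gbp2, a GTPase of host defence, was in 21.9% of 64 MOCK and 39.6% of 139 NAV cells with Cxcl9, against 1.96% and 3.30% of cells without it. Cd274, which encodes PD-L1, was in 17.2% and 30.2% against 6.90% and 6.86%. Tap1, the peptide transporter for MHC class I, was in 18.8% and 34.5% against 6.80% and 10.99%. Type I interferon genes passed the same rule in 6 of 11 in MOCK and 4 of 11 in NAV. For Cxcl10 the MOCK count was larger for the type I list, 10 of 11, than for the interferon-gamma list, 3 of 11; in NAV it was 7 of 11 and 10 of 10. All genes passed at 2.38% and 2.91%. Ifit1, an antiviral RNA-binding protein, was in 11.8% of 255 MOCK and 8.20% of 183 NAV cells with Cxcl10, against 0.741% and 0.705% of those without. Cells with a ligand were deeper before thinning (medians of 6548 and 5257 UMIs for Cxcl9 in MOCK, 4817 and 4376 in NAV), and the part of depth beyond the thinning was not tested. These comparisons also pool phagocyte classes that hold Cxcl9 to different degrees. In NAV it was in 7.46% of cDC2-like and 1.19% of classical monocyte-like cells, thinned. The part of class in the comparisons was not tested.

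Over the phagocytes together, the interferon lists themselves differed between libraries in opposite directions. Here a gene counts where its interval leaves out 0, a looser rule by which 23.9% of genes were higher and 25.9% lower in the phagocytes together. The interferon-gamma list had 9 of 11 measured genes higher and 0 lower, with a median log2 ratio of 0.50 against -0.01 over all genes. Gbp2 had 1028 and 1527 UMIs, a log2 ratio of 1.42, and Tap1 2562 and 2837 UMIs, a ratio of 1. Psmb9, a subunit of the immunoproteasome, had 0.80, and Ciita, the regulator of MHC class II genes, 0.78. The type I list had 0 of 11 higher and 9 lower, with a median of -0.50. Isg15, a ubiquitin-like protein, had 1504 and 199 UMIs, a log2 ratio of -2.06, and Irf7, the amplifier of type I interferon, -1.41. In cDC2-like cells, where 10.9% of genes were higher and 11.6% lower, 7 of 10 interferon-gamma genes were higher and 0 lower, with a median of 1.03, and the type I list was mixed, 4 higher and 2 lower of 11. Gbp2 had 30 and 331 UMIs there, a log2 ratio of 2.99. In macrophage-like cells, where 19.1% were higher and 19.4% lower, 5 of 11 interferon-gamma genes were higher and 10 of 11 type I genes lower. Other classes differed in the type I list. Its median was -0.91 in classical monocyte-like cells and -0.62 in the cluster led by Spon1 and Vdr. It was 0.01 in Kupffer-like cells and 0.66 in the cluster led by Ace and Tppp3.

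Genes upstream of the ligands were compared as class sums, not in the cells that held a ligand. Of 14 receptors and signalling genes in the phagocytes together 9 were higher and 3 lower by the interval rule, beside 23.9% and 25.9% of all genes. Of the genes so counted, all but 1 differed by less than 1 on the log2 scale. Irf1, a transcription factor of the interferon response, had a log2 ratio of 0.38, and Jak2, a kinase of cytokine receptors, 0.37. Ifngr1 and Ifngr2, the chains of the interferon-gamma receptor, had 0.16 and -0.23. Rela, the NF-kB subunit p65, was lower, 5260 and 1025 UMIs, a log2 ratio of -1.51, and was also lower in T, NK and innate lymphoid cells together, at -1.35. In cDC2-like cells 3 of the 14 were higher and 6 lower, beside 10.9% and 11.6% of all genes, with a median log2 ratio of -0.009. Irf1 (1.13) and Irf8, a factor of dendritic cell development (1.20), were among those higher. Il12b, a subunit of the cytokine IL-12 that drives interferon-gamma, had 283 and 587 UMIs in the phagocytes, a log2 ratio of 1.91, and 24 and 148 in cDC2-like cells, 2.15. Of the 5 brakes, 1 was higher and 2 were lower in the phagocytes together, beside the same 23.9% and 25.9% of all genes, and nothing is read from that count. Ifnb1, which encodes interferon-beta, had 20 and 1 UMIs. In the phagocytes together Dpp4, a protease that trims these chemokines, had a log2 ratio of 1.26, and Pf4, a platelet-type CXCR3 ligand, -0.64. Dpp4 differed by class. It was lower in cDC2-like cells, at -0.20, and higher by more than 1 in the cluster led by Ace and Tppp3. Its ratio was -0.01 in cDC1-like and -0.54 in nonclassical monocyte-like cells, neither higher nor lower by the interval rule. The part of class makeup in the Dpp4 ratio of the phagocytes together was not tested. Cxcl11 and Mx2 were not analysed here.

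Interferon-gamma itself was read in few cells. Ifng had 29 UMIs in 20 MOCK cells and 107 in 58 NAV cells, and 26 and 104 of these were in T, NK and innate lymphoid cells together, a log2 ratio of 1.38 (0.75 to 2.06). In NAV, NK-like cells held 31 of them in 24 cells and CD8 T-like cells 23 in 11 cells. CD4 T-like cells held 23 as well, 19 of them in 1 cell.

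The lymphocytes of both libraries had similar measured Cxcr3 levels. T, NK and innate lymphoid cells together had 55 and 87 UMIs, or 36.3 (27.3 to 47.2) and 37.3 (29.9 to 46.0) CPM, a log2 ratio of 0.04 (-0.46 to 0.55). A UMI was found in 7.89% of cells in MOCK (44 of 558) and 7.87% in NAV (70 of 889), 4.03% and 3.58% thinned. The interval still allows a difference of either sign up to its bounds. Cxcr3 had 20 UMIs or more in 4 classes and was called in 0. The highest named class was Treg-like, at 136 (76.2 to 225) and 179 (120 to 258) CPM, with a UMI in 10 of 50 cells of MOCK (20%, 10.03 to 33.7) and 19 of 68 of NAV (27.9%, 17.7 to 40.2), 10.4% and 16.4% thinned. The 2 intervals overlap. T cells outside the CD4, CD8, Treg and gamma-delta classes had a UMI in 17.1% and 17.7%.

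CD8 T-like cells, the cytotoxic lymphocytes that the study's title names, had 10 and 14 Cxcr3 UMIs, or 32.5 (15.6 to 59.7) and 24.7 (13.5 to 41.4) CPM, a log2 ratio of -0.40 (-1.67 to 0.94). Their share with a UMI was 7.56% of 119 MOCK and 5.78% of 225 NAV cells, 6.48% and 2.83% thinned. Within them most detections were in the cluster led by Cd8a and Gzmk, 8 of 43 MOCK cells (18.6%) and 8 of 78 NAV cells (10.3%). NK-like cells had 4 and 15 UMIs, a log2 ratio of 1.10 (-0.55 to 3.15). In gd T/T17-like cells, the highest Cxcl10 class, Cxcr3 was in 5.11% and 1.72% of cells. CD4 T-like cells had 0 of 63, which allows up to 4.76% by 3 counts and 5.69% by the exact interval, and 2 of 132. The cycling lymphocyte cluster led by Pclaf and Cdc6 had the highest share, 7 of 17 MOCK and 6 of 18 NAV cells, at depths of 6099 and 4252.5 UMIs.

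Outside lymphocytes Cxcr3 was in pDC-like cells, the plasmacytoid dendritic cells that make type I interferon (10.4% of 48 MOCK and 8.50% of 153 NAV cells), and cDC1-like cells (6.33% and 8.47%). In the phagocytes together 0.673% and 0.954% of cells had a UMI, 0.0474% and 0.233% thinned. Those MOCK cells held more alpha-beta T markers than the rest, 133 against 18.1 CPM, and the NAV cells 26.9 against 18.5, beside 7203 and 7707 in CD8 T-like cells. Their part in the Cxcr3 of phagocytes was not tested. Of all cells with a Cxcr3 UMI, 44% in MOCK and 49.0% in NAV were T, NK or innate lymphoid cells.

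**Figure D5:**
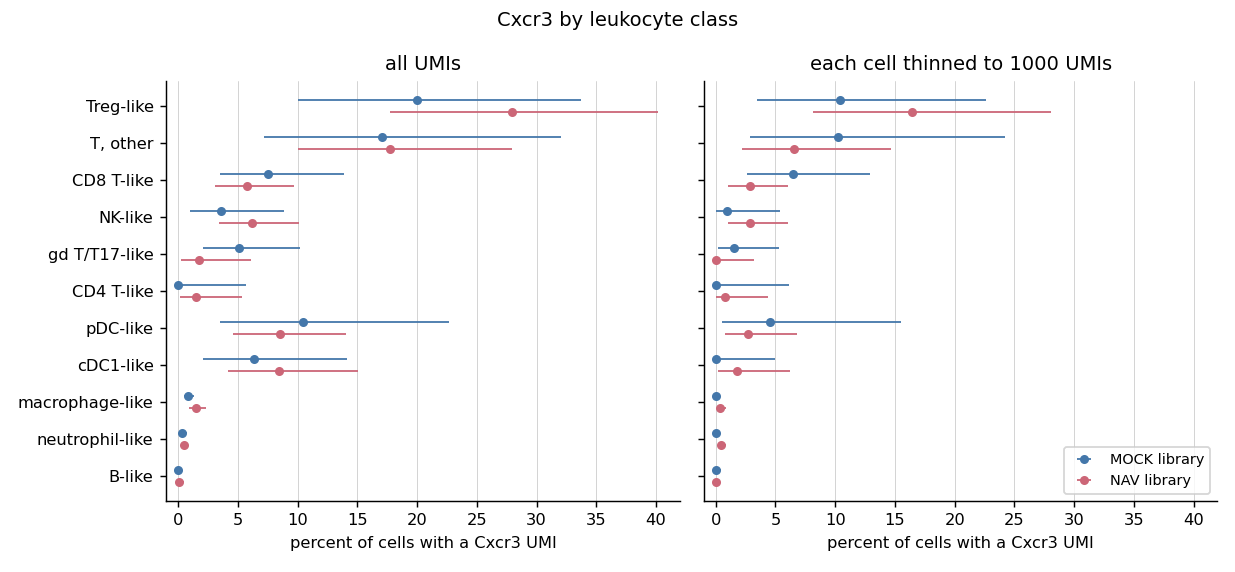
Percent of cells with a Cxcr3 UMI (horizontal axis) by class and library, with all UMIs (left) and after thinning each cell to 1000 UMIs (right), with exact binomial intervals. Treg-like cells are highest among the classes drawn, at 20% in MOCK and 27.9% in NAV unthinned, and the MOCK and NAV intervals overlap in every class drawn.

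The lymphocyte genes often expressed with Cxcr3 were set against it cell by cell, over both libraries. Of the T, NK and innate lymphoid cells, 114 had a Cxcr3 UMI and 1333 did not. Ccl5, a chemokine of effector cells, was in 68.4% (59.0 to 76.8) of these against 54.0% (51.3 to 56.7) of the others, and Itgal, the adhesion integrin LFA-1, in 73.7% (64.6 to 81.5) against 57.6% (54.9 to 60.3). Ccr7, the lymph-node homing receptor of naive cells, was in 10.53% (5.56 to 17.7) against 18.0% (16.0 to 20.2). Tbx21, the factor T-bet that drives Cxcr3, was in 17.5% against 15.8%. Thinned, with 51 cells left, Ccl5 was 56.9% (42.2 to 70.6) against 49.0% and Itgal 29.4% against 35.2%, so at equal depth the Ccl5 difference was smaller and the Itgal difference had the other sign. Tcf7, a factor of naive and memory cells, was in 9.80% (3.26 to 21.4) against 23.9% (21.6 to 26.3) thinned, and in 34.2% against 37.7% unthinned. Of the 15 genes of that list, 7 were higher and 4 lower in NAV in these cells by the interval rule, against 8.12% and 11.3% of all genes. Of 6 genes that couple the receptor 0 were higher and 3 lower. They include Arrb1 (beta-arrestin, -1.27), Grk2 (the receptor kinase, -0.74) and Gnai2 (an inhibitory G protein, -0.52), which were lower in the phagocytes too, at -1.27, -1.01 and -0.59. Of the 6 genes, 2 were higher and 4 lower in the phagocytes, where 23.9% and 25.9% of all genes were. The median of these genes was also below 0 in B-like cells, at -0.33, and in neutrophil-like cells, at -0.46.

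The genes whose level followed each member most closely were ranked over the 26 sums of 13 classes in 2 libraries, by Pearson r of log2(CPM + 10) among 9894 genes. For Cxcl9 they were Batf2 (r = 0.85), Slamf8 (0.83), Procr (0.83), Ppfibp1 (0.80) and Il12b (0.80). For Cxcl10 they were Arf4 (0.79), Hilpda (0.78), Spty2d1 (0.78), Dtnbp1 (0.76) and Gramd1b (0.73). For Cxcr3 they were Ikzf2 (0.89), Zdhhc2 (0.84), Dusp14 (0.83), Dusp4 (0.81) and Gata3 (0.81). The ligands had an r of 0.22 with each other. The sums share libraries and depth, and these values are a description over classes.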

How the data were processed

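UMI counts per gene and cell were deposited by the authors as 1 matrix per library. Reads were processed with fastp, STARsolo 2.7.10a and Cell Ranger against mm10, per the submitters' processing notes. No deposited barcode had under 500 UMIs. The members and gene lists used here were chosen with earlier results of these data known. Barcodes with at least 500 UMIs and 200 genes and at most 20% mitochondrial UMIs were kept (10770 MOCK, 10441 NAV). Doublets were removed by a Scrublet score above 0.25 or a cluster median above 0.10 (578 and 569 barcodes, 5.37% and 5.45%), leaving 42195772 and 28729107 UMIs. Cells were clustered jointly with scanpy 1.11.5 and leidenalg 0.10.2 on 2000 variable genes without the members, 30 components and 15 neighbours, at resolution 1.0 (2.0 for alpha-beta T cells), and named from marker lists. Names are rebuilt, so shares of cells may differ from the study's own. UMIs were summed per class and library and given as CPM. Poisson, binomial and conditional intervals are exact, computed with scipy 1.17.1, and no test was run because each group is 1 library. Ratios needed 20 UMIs over both libraries and calls 50 cells in each. A count of 0 was set at a floor of 3 counts. Shares of cells were also taken after thinning cells of at least 1000 UMIs to 1000. The genes named are the members, the genes of the pathway lists and the 5 genes most like each member among those with at least 200 UMIs; clusters are called by their 2 leading genes, and Ptprc, C1qa, H2-Ab1 and H2-Aa are named only to describe cells. The counting steps were tested on simulated data. Promoters and their motifs come from RefSeq. 1 gene of the signalling list, and 1 motif searched, are not reported here.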

Additional observations from a re-analysis of the deposited data

Results flagged for a closer look

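Cxcl10 moved in opposite directions in cDC2-like and NK-like cells, with log2 NAV/MOCK ratios of 1.963 and -2.59. The difference between these classes was not tested, since each group is 1 library. Cxcr3 was also read in a cluster removed as doublets, which the comparisons do not use: 14 UMIs in MOCK and 14 UMIs in NAV, in 11 of 95 MOCK barcodes (11.6%) and 10 of 54 NAV barcodes (18.5%).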

How the results depend on the processing

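No paired analysis was possible because each group holds 1 library, and no replicate could be left out. Of the alternative values, 35 stayed within the counting interval of the reported one, 15 moved beyond it and 3 reversed. Over all cells the Cxcl9 log2 ratio was 1.84 with each cell at equal weight and 1.77 with counts capped at 10 per cell, and the Cxcl10 ratio was 0.57 and 0.28 under the same settings, 0.40 with median-of-ratios scaling and 0.39 after subtracting the median of genes of like GC content. In macrophage-like cells the Cxcl9 ratio was 2.44 with strict filters, 2.92 with doublets kept, 3.08 at resolution 2.0, 2.78 with the libraries clustered separately, 2.88 with the members among the clustering genes, 1.54 with each cell at equal weight and 2.46 over all mononuclear phagocytes. The Cxcl10 ratio there reversed, to 0.10 at resolution 2.0, 0.55 with separate clustering and 0.32 over all mononuclear phagocytes, and was -0.043 with the members among the clustering genes and -0.072 with capped counts. The cause was not tested. Every Cxcr3 alternative run stayed within its interval, and separate clustering gave no value for CD8 T-like and NK-like cells. The GC setting was not run for Cxcr3 in NK-like cells, which have under 20 UMIs. Capped counts and all phagocytes together were chosen after seeing the data. Depth limits Cxcr3 most, since its cells mostly hold 1 UMI.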
